A study of Homo sapiens with 6 samples.

Results

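The genes of the insulin-like growth factor (IGF) system were followed in lenvatinib-resistant TPC-1 cells, a human papillary thyroid carcinoma line. The 10 genes were chosen by name from the 22681 genes of the deposited count table: the ligand IGF2, the receptors IGF1R, IGF2R and INSR, and the IGF-binding proteins IGFBP2, IGFBP3, IGFBP4, IGFBP5, IGFBP6 and IGFBP7. All 10 had a row of their own and all 10 passed the filter on low counts. Cultures with a hairpin RNA against KRT15 (shKRT15, n = 3) were compared with cultures carrying a non-targeting hairpin (shNC, n = 3). Cells of both groups were of the same drug-resistant line (TPC-1-Len), were kept in 10 µM lenvatinib, a multikinase inhibitor, and received their hairpin by liposomal transfection. Each group rests on 1 hairpin in 1 line, and no drug-sensitive or drug-free culture is analysed here. The harvest time after transfection is not given in the sources used here.

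IGF2 is a secreted growth factor that activates the receptor tyrosine kinase IGF1R and an isoform of the insulin receptor INSR, which signal through IRS and SHC adaptors to the PI3K-AKT and MAPK routes. IGF2R has no kinase: it takes IGF2 up for degradation and also carries enzymes tagged with mannose 6-phosphate to lysosomes. The binding proteins IGFBP1 to IGFBP6 hold IGFs with high affinity outside the cell, lengthen their life and limit or deliver them to receptors, while IGFBP7 binds IGFs weakly. Proteases such as PAPPA release the ligand by cutting binding proteins. IGF signalling is a growth and survival route in thyroid cells and a known bypass when other receptor kinases are inhibited.

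Libraries held 39868231 to 41343780 counted reads in shKRT15 and 36286059 to 36808695 in shNC. KRT15 itself, at 24.7 ± 0.365 CPM (SD, n = 3) in shKRT15 and 32.3 ± 3.77 CPM (SD, n = 3) in shNC, had a log2 fold change of −0.38 with an SE of 0.10 (adjusted p = 0.00465). This was a change of −23.4% in RNA, at rank 3139 of the 14356 tested genes by size of the fall. CPM is the read count of a gene scaled to a common library size with TMM factors. The thyroid factors PAX8 and FOXE1 and the keratins KRT7, KRT8 and KRT18 were detected in every library. The 10 thyroid and epithelial markers in the table summed to 654 to 710.4 CPM in shKRT15 and 535 to 551 CPM in shNC. Among them KRT18 rose (log2 fold change 0.89 ± 0.07, adjusted p = 1.37e-08), and TG, the thyroglobulin gene, stood at 0.808 ± 0.186 CPM in shKRT15 and 1.58 ± 0.59 CPM in shNC (SD, n = 3 each; adjusted p = 0.0512). NKX2-1, TSHR, EPCAM and CDH1, 4 of the 10 markers, stayed under 1 CPM in all 6, so the label of thyroid epithelial cells rests on the others. In shNC replicate 3, genes with transcripts longer than 4655 bases lay a median of 0.099 below their group mean on the log2 scale, and genes of up to 2687 bases lay 0.076 above it. In shNC replicate 1 the long genes lay 0.074 above the group mean and the short genes 0.060 below it.

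Most of the binding proteins rose and the ligand fell. IGFBP5, IGFBP3, IGFBP2, IGFBP4 and IGFBP6 were higher in shKRT15, IGFBP7, IGF2 and IGF2R were lower, and IGF1R and INSR did not pass the test. The 8 called genes are to be read against 45.0% of all 14356 tested genes called, the 5 higher ones against 22.1% and the 3 lower ones against 23.0%. Calls were made with the quasi-likelihood test of edgeR at a Benjamini-Hochberg adjusted p under 0.05 over all tested genes. The groups did not overlap in 7 of the 10 genes, where 54.0% of all tested genes did not overlap. The median log2 fold change of the 10 genes was 0.41, beside −0.001 over all tested genes. The 3 cultures of a group are described as biological replicates. Since separate transfections are not mentioned, the spread behind each p may be partly technical.

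**Figure D1:**
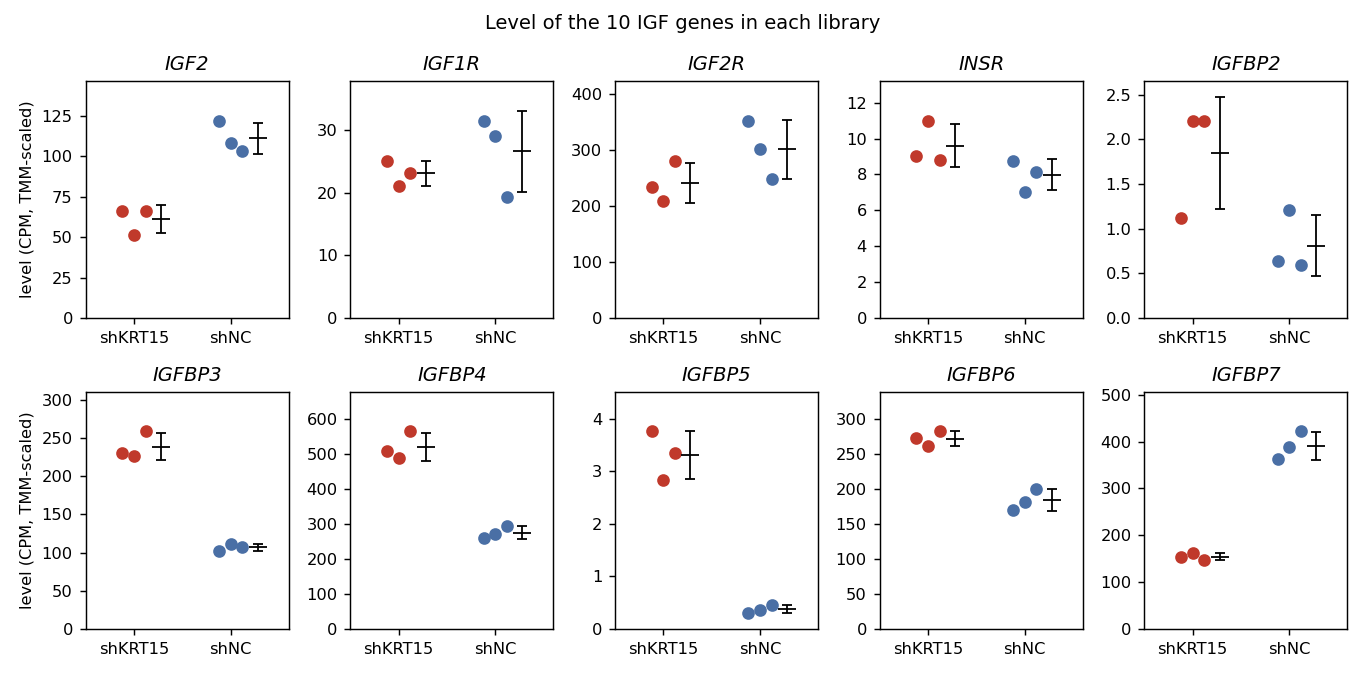
Level of each of the 10 genes in CPM (linear axes from 0) in the 3 shKRT15 libraries (red) and the 3 shNC libraries (blue), with the mean and SD of each group as a black bar. The IGFBP3, IGFBP4, IGFBP5 and IGFBP6 points of shKRT15 lie above all shNC points, those of IGF2 and IGFBP7 lie below them, and the IGF1R, IGF2R and IGFBP2 points overlap.

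The ligand gene IGF2 was lower in every shKRT15 library. It had 66.3, 51.4 and 65.9 CPM in the shKRT15 libraries and 122, 108 and 103 CPM in the shNC libraries. The groups did not overlap, and shKRT15 replicate 2 was the lowest of all. The log2 fold change was −0.86 ± 0.10 (SE), a ratio of 0.551 (95% confidence interval 0.477 to 0.636, adjusted p = 2.27e-06). A two-sided exact permutation test on the CPM gave p = 0.1, and no smaller value can arise from 3 against 3; the same holds for every gene whose groups did not overlap. IGF2 occupies 2129117 to 2149566 on the minus strand of chromosome 11 (GRCh38). The antisense RNA gene IGF2-AS lies wholly within that span over 8155 bases, and it fell too, with 86, 44 and 72 reads in shKRT15 and 134, 177 and 132 reads in shNC (log2 fold change −1.34 ± 0.27, adjusted p = 5.99e-04). Strand use in counting is not given in the sources used here, so reads of the pair cannot be told apart. IGF2 reads outnumbered those of IGF2-AS in every library, at 2209 to 2714 in shKRT15 and 3666 to 4403 in shNC. The other IGF ligand of this system, IGF1, had no read in shKRT15 and 4, 2 and 1 reads in shNC, too few to test.

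Of the receptors, IGF2R was called lower at the edge of the threshold, and the signalling receptors IGF1R and INSR were not called. IGF2R, the scavenger receptor for IGF2, had 233, 209 and 279.8 CPM in shKRT15 and 352, 302 and 248 CPM in shNC. The ranges overlapped, since shKRT15 replicate 3 stood above shNC replicate 3. The log2 fold change was −0.32 ± 0.12 (SE; adjusted p = 0.0471), and adjusted p ran from 2.41e-04 to 0.22 over the other settings tried. The call was lost without shKRT15 replicate 1 (−0.29, adjusted p = 0.121) or 2 (−0.22, 0.162), without shNC replicate 1 (−0.19, 0.181) or 2 (−0.32, 0.0822), with limma-voom (−0.32, 0.0632) and with total-count scaling (−0.27, 0.0824). The other receptor for mannose 6-phosphate, M6PR, fell by 0.36 ± 0.07 on the log2 scale (adjusted p = 5.18e-04), with 139 ± 9.21 CPM in shKRT15 and 178 ± 0.732 CPM in shNC (SD, n = 3 each).

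IGF1R, the main IGF receptor kinase, had 25.1, 21.1 and 23.1 CPM in shKRT15 and 31.5, 29.1 and 19.3 CPM in shNC. The shKRT15 libraries lay between the lowest and the 2 higher shNC libraries. The log2 fold change was −0.20 ± 0.15 (SE; 95% confidence interval −0.51 to 0.11, adjusted p = 0.276), with adjusted p from 0.00318 to 0.78 over the other settings. The value was −0.39 (adjusted p = 0.00318) without shNC replicate 3, −0.06 (0.78) without shNC replicate 1, and −0.38 (0.00441) once each library's trend on transcript length and base composition had been taken out. IGF1R and IGF2R have the longest transcripts of the 10 genes, 12235 and 14044 bases, and within shNC both were lowest in replicate 3, whose long genes lay below the group mean, and highest in replicate 1, whose long genes lay above it. With that trend taken out, IGF2R was at −0.47 (adjusted p = 0.00132). In shKRT15, IGF2R was highest in replicate 3, whose long genes lay 0.017 below their group mean on the log2 scale. IGF1R was highest in replicate 1 of that group, whose long genes lay 0.012 above it. The part of transcript length in these values was not tested.

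INSR, the insulin receptor, had 9.01, 11.0 and 8.78 CPM in shKRT15 and 8.75, 7.05 and 8.15 CPM in shNC. Every shKRT15 library was above every shNC library, by a margin of 8.78 against 8.75 CPM at the closest. The log2 fold change of 0.26 ± 0.14 (SE) had a 95% confidence interval of −0.04 to 0.57 (adjusted p = 0.148, and 0.0884 to 0.646 over the other settings). The log2 ratio of INSR to IGF1R reads within a library, which no scaling can move, was −1.27 ± 0.29 in shKRT15 and −1.71 ± 0.42 in shNC (SD, n = 3 each; two-sided exact permutation p = 0.3). The log2 ratio of IGF2R to IGF2 reads was 1.97 ± 0.14 in shKRT15 and 1.42 ± 0.14 in shNC, with no overlap between the groups (exact p = 0.1). Per read of the ligand there were thus more reads of the scavenger receptor in shKRT15, although both genes were called lower.

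**Figure D2:**
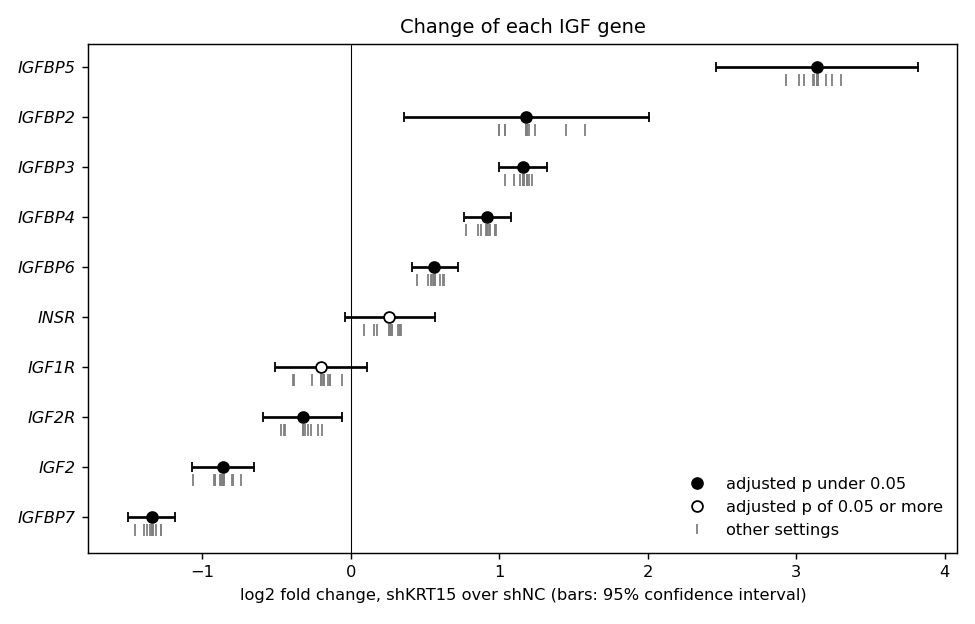
Log2 fold change of each gene, shKRT15 over shNC, with its 95% confidence interval; filled points passed the adjusted threshold, and grey ticks below each point are the values under the other settings tried. IGFBP5 stands furthest right at 3.14 and IGFBP7 furthest left at −1.34, and the grey ticks of all 10 genes stay on the side of 0 of their point.

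Among IGFBP2 to IGFBP7, IGFBP5 had the largest fold change and the lowest level in shNC. IGFBP5, a high-affinity binding protein that also attaches to extracellular matrix, had 154, 122 and 135 reads in shKRT15 and 11, 13 and 16 reads in shNC. These are 3.31 ± 0.46 CPM in shKRT15 and 0.373 ± 0.0742 CPM in shNC (SD, n = 3 each), an 8.81-fold difference (95% confidence interval 5.51 to 14.1; log2 fold change 3.14 ± 0.32, SE). It ranked 19 among all tested genes by the size of the rise and 630 by p-value. Its adjusted p was 4.71e-07, and every shKRT15 library held at least 122 reads.

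IGFBP3, IGFBP4 and IGFBP6 were abundant in both groups and rose together. IGFBP3, the main carrier of IGFs in blood, had 230.2, 227 and 259 CPM in shKRT15 and 102, 111 and 107 CPM in shNC (log2 fold change 1.16 ± 0.07, adjusted p = 1.48e-09). IGFBP4, a binding protein that mostly holds back IGF action, had 509, 489.9 and 566 CPM in shKRT15 and 260.3, 272 and 296 CPM in shNC (0.92 ± 0.08, adjusted p = 3.56e-08). IGFBP6, which prefers IGF2 over IGF1, had 272, 260.5 and 282 CPM in shKRT15 and 169.6, 181 and 199.9 CPM in shNC (0.56 ± 0.07, adjusted p = 9.14e-06). In all 3 genes the lowest shKRT15 library stood above the highest shNC library, and the rises were 2.23-fold, 1.89-fold and 1.48-fold in that order of genes. The spread was small, with a coefficient of variation between 3.95% and 7.59% within shKRT15 and between 4.1% and 8.33% within shNC.

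IGFBP2, a binding protein often raised in carcinomas, was scarce in both groups. It had 46, 95 and 89 reads in shKRT15 and 23, 43 and 21 reads in shNC, and the lowest shKRT15 library (1.12 CPM) stood below the highest shNC library (1.21 CPM). The log2 fold change was 1.18 ± 0.39 (SE; adjusted p = 0.0205, and 0.00636 to 0.0891 over the other settings). The call was lost without shKRT15 replicate 2 (1.04, adjusted p = 0.0891), shKRT15 replicate 3 (1.04, 0.089) or shNC replicate 1 (1.04, 0.0588).

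The 4 binding protein genes with non-overlapping rises are shown by the 100 bases before their RefSeq start (GRCh38.p14), since they moved together. The window lies at chr2:216695550-216695649 (minus strand) for IGFBP5, chr7:45921273-45921372 (minus strand) for IGFBP3, chr17:40443350-40443449 (plus strand) for IGFBP4 and chr12:53097567-53097666 (plus strand) for IGFBP6. Each is written 5′ to 3′ on the strand of the gene, and capitals mark matches to a TATA box, its variant or a GC box.
IGFBP5: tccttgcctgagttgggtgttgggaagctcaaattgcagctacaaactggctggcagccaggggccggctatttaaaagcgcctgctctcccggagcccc
IGFBP3: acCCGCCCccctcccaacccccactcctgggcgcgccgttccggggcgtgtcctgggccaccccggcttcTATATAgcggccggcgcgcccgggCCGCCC
IGFBP4: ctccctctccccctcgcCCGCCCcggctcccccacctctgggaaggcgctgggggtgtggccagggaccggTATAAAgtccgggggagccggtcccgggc
IGFBP6: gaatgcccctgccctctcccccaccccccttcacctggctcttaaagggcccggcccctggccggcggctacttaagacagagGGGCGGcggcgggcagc

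IGFBP3 and IGFBP4 held a TATA match at almost the same place, starting 30 and 29 bases before the start. All motifs were searched on both strands. Among the same 100 bases of 35116 promoters in the table, the TATA box letters TATAAA occurred in 4.99% and the variant TATATA, found in IGFBP3, in 1.65%. A GC box, the letters GGGCGG bound by SP1-type factors, stood in the IGFBP3, IGFBP4 and IGFBP6 windows and in 31.3% of all promoters. It was not limited to genes that rose: 7 of the 10 promoter entries of the IGF genes held it, among them those of IGF2R, called lower, and INSR, not called. The window of IGFBP5 held none of these exact letters, and near matches were not searched. CCAAT (18.1% of all promoters) and the AP-1 letters TGANTCA (2.75%) were searched too and were in none of the 4. The table held 8 of the 10 genes, without IGF2 and IGFBP7. Its 10 entries for them had 58 to 87% G and C in this window, beside a median of 60% over all promoters. The part of base composition in the motif matches was not tested. These are matches of letters in a window before 1 annotated start, and which start these cells used is not known from counts per gene.

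IGFBP7 moved against the other binding proteins. This secreted, weakly IGF-binding protein of the extracellular matrix had 153, 162 and 147 CPM in shKRT15 and 362, 388 and 422 CPM in shNC. The groups did not overlap, and the lowest shNC library stood far above the highest shKRT15 library. The log2 fold change was −1.34 ± 0.07 (SE), a ratio of 0.394 (95% confidence interval 0.353 to 0.44, adjusted p = 2.74e-10). IGFBP7 had the smallest p-value of the 10 genes, at rank 91 of all tested genes. IGFBP7-AS1, an antisense RNA gene that overlaps the IGFBP7 span by 624 bases, was also lower, with 55, 33 and 87 reads in shKRT15 and 93, 90 and 183 reads in shNC (log2 fold change −1.27 ± 0.36, adjusted p = 0.00926). It was chosen for its overlap after its values were seen, and its reads within the shared bases cannot be told apart from those of IGFBP7.

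The opposite moves changed which binding protein dominated. IGFBP7 made up 13.1, 14.1 and 11.7% of the reads of IGFBP2 to IGFBP7 in shKRT15 and 40.5, 40.7 and 41.2% in shNC. IGFBP4 made up 43.5, 42.8 and 44.9% in shKRT15 and 29.1, 28.5 and 28.8% in shNC. IGFBP3 stood at 20.02 ± 0.453% in shKRT15 and 11.2 ± 0.668% in shNC, and IGFBP6 at 22.8 ± 0.44% in shKRT15 and 19.1 ± 0.303% in shNC (SD, n = 3 each). These 4 shares did not overlap between the groups (two-sided exact permutation p = 0.1 for each). Together IGFBP5 and IGFBP2 stayed under 1% of these reads in every library.

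**Figure D3:**
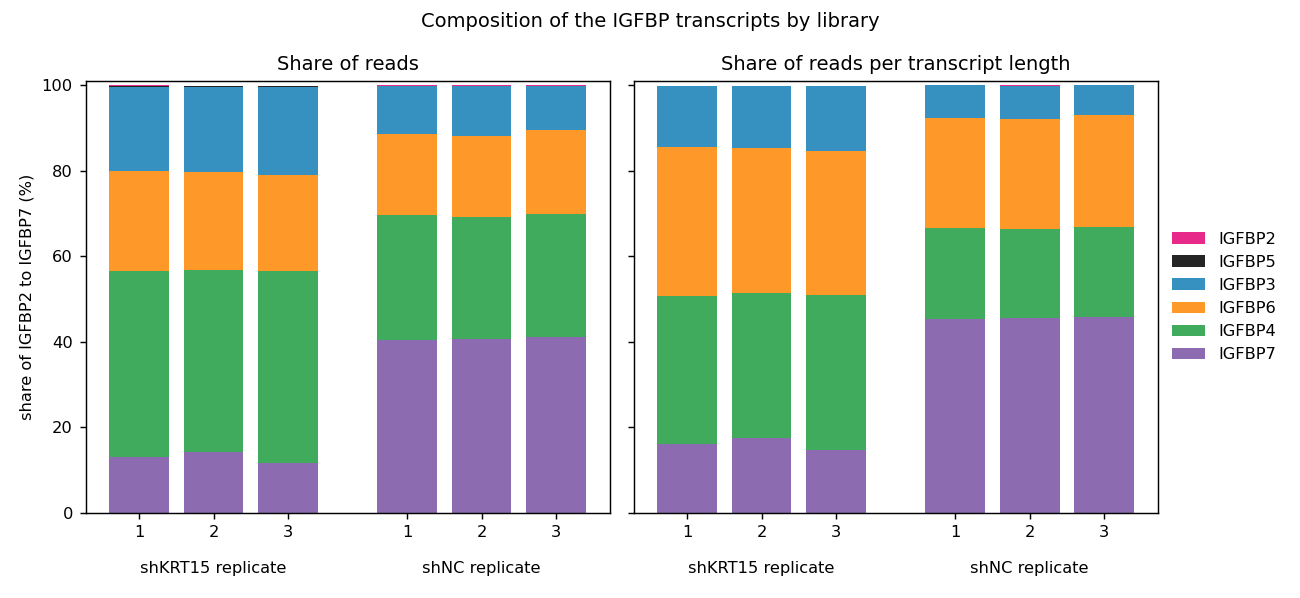
Share of each gene among the reads of IGFBP2 to IGFBP7 in each library (left) and the same after dividing reads by the length of the longest annotated transcript (right), in percent, shKRT15 replicates left of shNC replicates. The IGFBP7 block is 11.7 to 14.1% of reads in shKRT15 and 40.5 to 41.2% in shNC; the IGFBP5 and IGFBP2 blocks are barely visible at the top.

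Per length, the total of the binding proteins changed less than its parts. The summed level of IGFBP2 to IGFBP7 was 676 ± 29.1 CPM per kb in shKRT15 and 599.9 ± 43.1 CPM per kb in shNC (SD, n = 3 each), a ratio of means of 1.13 with no overlap between the groups. Without IGFBP7 the sum was 568 ± 33.8 CPM per kb in shKRT15 and 326 ± 21.9 CPM per kb in shNC, a ratio of 1.74. Set against the ligand, the IGFBP2 to IGFBP7 sum was 56.1, 70.8 and 60.01 times the IGF2 level per kb in shKRT15 and 25.7, 30.7 and 34.8 times in shNC. The groups did not overlap (exact p = 0.1). These are RNA ratios and say nothing of protein amounts. The kb are those of the longest GENCODE transcript of each gene, which may not be the one expressed.

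In shKRT15, the order of levels per kb began with IGFBP4 (237 ± 18 CPM per kb) and IGFBP6 (231 ± 9.11), whose ranges overlapped. IGFBP7 (108 ± 5.06) and IGFBP3 (98.9 ± 7.21) came next and also overlapped, followed by IGF2R (17.1 ± 2.57) and IGF2 (11 ± 1.51), which did not. IGF1R (1.89 ± 0.165) and INSR (1.07 ± 0.134) lay far below, and IGFBP5 (0.533 ± 0.0741) and IGFBP2 (0.418 ± 0.142) overlapped at the bottom (SD, n = 3 for each gene).
In shNC, IGFBP7 led at 274 ± 21.1 CPM per kb, ahead of IGFBP6 (156 ± 13) and IGFBP4 (126 ± 8.25), with no overlap among these 3. IGFBP3 (44.3 ± 1.82) stood clear of IGF2R (21.4 ± 3.72) and IGF2 (19.9 ± 1.68), which overlapped each other. IGF1R (2.18 ± 0.528), INSR (0.892 ± 0.0968), IGFBP2 (0.184 ± 0.0777) and IGFBP5 (0.0601 ± 0.0119) closed the order without overlap. By mean level over all libraries, IGFBP6, IGFBP7 and IGFBP4 ranked 256, 262 and 279 of 13667 tested genes with a known length, and IGFBP5 ranked 12461. IGFBP7 stood below IGFBP4 and IGFBP6 in shKRT15 and above them in shNC, and IGFBP5 stood above IGFBP2 in the shKRT15 means and below it in shNC.

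Several of the binding protein genes are close neighbours. IGFBP2 (216632828 to 216664436, plus strand) and IGFBP5 (216672105 to 216695549, minus strand) face each other on chromosome 2 with 7668 bases between their ends, and both rose. IGFBP3 (45912245 to 45921272, minus strand) lies 18584 bases from IGFBP1 on chromosome 7. IGFBP1, a liver-type binding protein, had 23, 38 and 48 reads in shKRT15 and 1, 13 and 5 reads in shNC (log2 fold change 2.29 ± 0.65, adjusted p = 0.00817, and 0.00138 to 0.0531 over the other settings). The highest of these p-values, at a log2 fold change of 2.01, came without shKRT15 replicate 3. The log2 fold change was 3.34 without shNC replicate 2 and 1.79 without shNC replicate 1, and the gene did not pass a filter of 1 CPM in 3 libraries. IGFBP4 and IGFBP6 lie on the chromosomes of the keratin clusters: IGFBP4 is 1056019 bases from KRT15, the target of the hairpin, on chromosome 17, and IGFBP6 is 144760 bases from KRT18 on chromosome 12.

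Binding protein genes are also expressed by stromal cells, so markers of other cell types were summed. The 10 fibroblast markers summed to 8.8 to 10.1 CPM in shKRT15 and 22.5 to 27.4 CPM in shNC. Among them, 6 (COL1A2, COL3A1, DCN, PDGFRA, FAP and THY1) stayed under 1 CPM in all libraries. COL1A1, LUM and MFAP5 were called lower, with log2 fold changes of −1.52, −2.77 and −2.03. The list was not uniform: PDGFRB was called higher, at 3.06 ± 0.39 CPM in shKRT15 and 1.47 ± 0.336 CPM in shNC (SD, n = 3 each; adjusted p = 0.00337), and THY1 had 10, 4 and 9 reads in shKRT15 and 0, 1 and 0 reads in shNC. The 7 leukocyte markers, 6 of them in the table, summed to 53.4 to 70.6 CPM in shKRT15 and 90.9 to 94.1 CPM in shNC, nearly all of it CD68, and PTPRC, CD3E, CD14 and LYZ stayed under 1 CPM. CD68, CSF1R and LYZ were called lower, with log2 fold changes of −0.56, −2.03 and −3.40, and LYZ had at most 24 reads in any library. The 6 endothelial markers in the table summed to 1.14 to 2.1 CPM in shKRT15 and 0.814 to 1.86 CPM in shNC, and 5 of them (VWF, KDR, TEK, CLDN5 and EMCN) stayed under 1 CPM. The fibroblast and leukocyte sums, though not each of their genes, were lower in shKRT15, as were IGFBP7 and IGF2, while IGFBP3, IGFBP4, IGFBP5, IGFBP6 and the thyroid and epithelial sum were higher. Within that last sum KRT18 alone was called, at 215 ± 5.96 CPM in shKRT15 and 116 ± 4.01 CPM in shNC (SD, n = 3 each). PAX8, FOXE1, TG, KRT7 and KRT8 were not called. All libraries came from cultures of the same cell line, so the marker names give no count of fibroblasts or leukocytes. The part of cell state in these changes was not tested. A shift between cells of the line and less RNA per cell cannot be told apart in bulk libraries.

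Outside the 10 genes, 7 lists of other IGF pathway genes held 65 genes, of which 51 were tested, 14 rose and 15 fell. With total-count scaling the counts were 16 higher and 10 lower, and with the trend on transcript length and base composition taken out they were 10 higher and 20 lower. Their median log2 fold change was 0.05. The share called in each direction is to be read against the 22.1% and 23.0% of all tested genes given above.

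Genes whose products act on the binding proteins went both ways. Of 7 such genes, STC1 and HTRA1 rose and PAPPA, STC2 and ADAM12 fell. PAPPA, the metalloprotease that frees IGFs by cutting IGFBP4, had 1418, 1447 and 1298 reads in shKRT15 and 3584, 2926 and 2141 reads in shNC (log2 fold change −1.27 ± 0.14, adjusted p = 3.55e-06). Its substrate gene IGFBP4 was higher in the same libraries, and every shKRT15 library held fewer PAPPA reads than any shNC library. The 2 stanniocalcins, which inhibit PAPPA, went opposite ways. STC2, the more abundant of them, stood at 59.2 ± 2.39 CPM in shKRT15 and 113 ± 4.33 CPM in shNC (−0.93 ± 0.07, adjusted p = 2.36e-08). STC1 stood at 8.6 ± 0.853 CPM in shKRT15 and 3.37 ± 0.985 CPM in shNC (1.35 ± 0.20, adjusted p = 3.43e-05; SD, n = 3 each). HTRA1, a serine protease that cuts IGFBP5 and itself carries an IGFBP-type domain, rose by 0.83 ± 0.10 on the log2 scale (adjusted p = 2.55e-06). PAPPA2, which cuts IGFBP3 and IGFBP5, was at 0.25 ± 0.11 (adjusted p = 0.0672), with no overlap between the groups, and was chosen after its values were seen. Settings that raised the count of higher calls among the 7 genes from 2 to 3 included upper-quartile and total-count scaling. No filter on low counts and leaving out shNC replicate 1 did so too.

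Genes of proteins with an IGFBP-type domain moved both ways. Of 12 listed, 6 were tested, 3 rose and 2 fell. The matricellular protein gene CCN3 had the largest log2 fold change of the 6, at 97.8 ± 4.34 CPM in shKRT15 and 31.5 ± 2.43 CPM in shNC (log2 fold change 1.64 ± 0.08, adjusted p = 1.03e-10). HTRA1 and CRIM1 (log2 fold change 0.29 ± 0.10, adjusted p = 0.0282) were the others called higher. CCN3 and HTRA1 kept their call in all 16 other settings. The count of higher calls was 2, without CRIM1, with the trend on transcript length and base composition taken out. It was also 2 without shNC replicate 2 and without shKRT15 replicate 1, 2 or 3. CCN1, at 508 ± 19.6 CPM in shKRT15 and 927 ± 28.9 CPM in shNC, fell by 0.87 ± 0.07 on the log2 scale (adjusted p = 1.63e-08; SD, n = 3 each). CCN2 was called lower at −0.26 ± 0.08 (adjusted p = 0.0165, and 3.62e-04 to 0.0837 over the other settings), a call lost without shKRT15 replicate 1 (−0.23, adjusted p = 0.0837) or 2 (−0.19, 0.0775), without shNC replicate 1 (−0.20, 0.0815) or 2 (−0.26, 0.0554), and with total-count scaling (−0.20, 0.0512).

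The genes of proteins that bind IGF2 mRNA did not pass the test. IGF2BP2 was at −0.14 ± 0.07 (adjusted p = 0.144) and IGF2BP3 at −0.14 ± 0.09 (adjusted p = 0.209), while IGF2BP1 had no read in shKRT15 and 1, 1 and 4 reads in shNC. IGF2BP2 was called lower with the trend on transcript length and base composition taken out (−0.26, adjusted p = 0.00156) and without shNC replicate 3 (−0.18, 0.0414), in a range of 0.00156 to 0.423. With shKRT15 replicate 2 left out, IGF2BP3 was called too (−0.23, adjusted p = 0.0426), in a range of 0.0426 to 0.604. Genes that attach mannose 6-phosphate to lysosomal enzymes, the other cargo of IGF2R, were at −0.03 ± 0.11 for GNPTAB (adjusted p = 0.839), −0.26 ± 0.10 for GNPTG (0.0343) and 0.16 ± 0.13 for NAGPA (0.346). The call of GNPTG was lost with total-count scaling (−0.20, adjusted p = 0.117, in a range of 1.34e-04 to 0.147 over the other settings), without shKRT15 replicate 2 (−0.24, 0.0873) or 3 (−0.20, 0.147) and without shNC replicate 2 (−0.26, 0.0896) or 3 (−0.20, 0.0864).

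Of the 11 tested adaptors and regulators of IGF1R and INSR, 4 were called higher and 1, GRB14, lower. The count of lower calls was 0 with total-count scaling, with no filter on low counts, without shKRT15 replicate 1 or 2 and without shNC replicate 1 or 2. It was 2 without shKRT15 replicate 3 and 4 with the trend on transcript length and base composition taken out. GRB10, an adaptor that restrains both receptors, had 125 ± 5.65 CPM in shKRT15 and 85 ± 3.14 CPM in shNC (log2 fold change 0.55 ± 0.07, adjusted p = 8.17e-06). SHC1, which links the receptors to MAPK signalling, rose by 0.36 ± 0.07 (adjusted p = 4.85e-04) and SH2B2 by 0.78 ± 0.21 (adjusted p = 0.00605). SH2B1 was called at 0.40 ± 0.13 (adjusted p = 0.0193, and 0.00891 to 0.211 over the other settings), a call lost once the trend on transcript length and base composition was taken out (0.20, adjusted p = 0.211), and also without shKRT15 replicate 3 (0.35, 0.0732) or shNC replicate 2 (0.35, 0.0883). The receptor substrates IRS1 (−0.06 ± 0.12, adjusted p = 0.725) and IRS2 (−0.09 ± 0.13, adjusted p = 0.581) did not pass the test and were chosen after their values were seen.

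Of 20 genes of the PI3K-AKT-mTOR arm, 5 rose and 6 fell. The catalytic subunit gene PIK3CA, at 35.2 ± 3.09 CPM in shKRT15 and 58.5 ± 5.98 CPM in shNC (log2 fold change −0.73 ± 0.10, adjusted p = 9.87e-06), and the regulatory subunit gene PIK3R1, at 32.5 ± 2.86 CPM in shKRT15 and 48.6 ± 7.27 CPM in shNC (−0.58 ± 0.11, adjusted p = 3.65e-04), fell. The kinase gene AKT2 stood at 117 ± 4.76 CPM in shKRT15 and 88.7 ± 3.73 CPM in shNC (0.40 ± 0.07, adjusted p = 2.25e-04; SD, n = 3 each). FOXO3, a transcription factor gene whose product AKT kinases hold out of the nucleus, was lower at −0.47 ± 0.12 (adjusted p = 0.00413, and 3.32e-06 to 0.0291 over the other settings), and at −0.31 without shNC replicate 1. Once the trend on transcript length and base composition was taken out, 2 genes of this arm were called higher. Without shKRT15 replicate 1 there were 3.

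**Figure D4:**
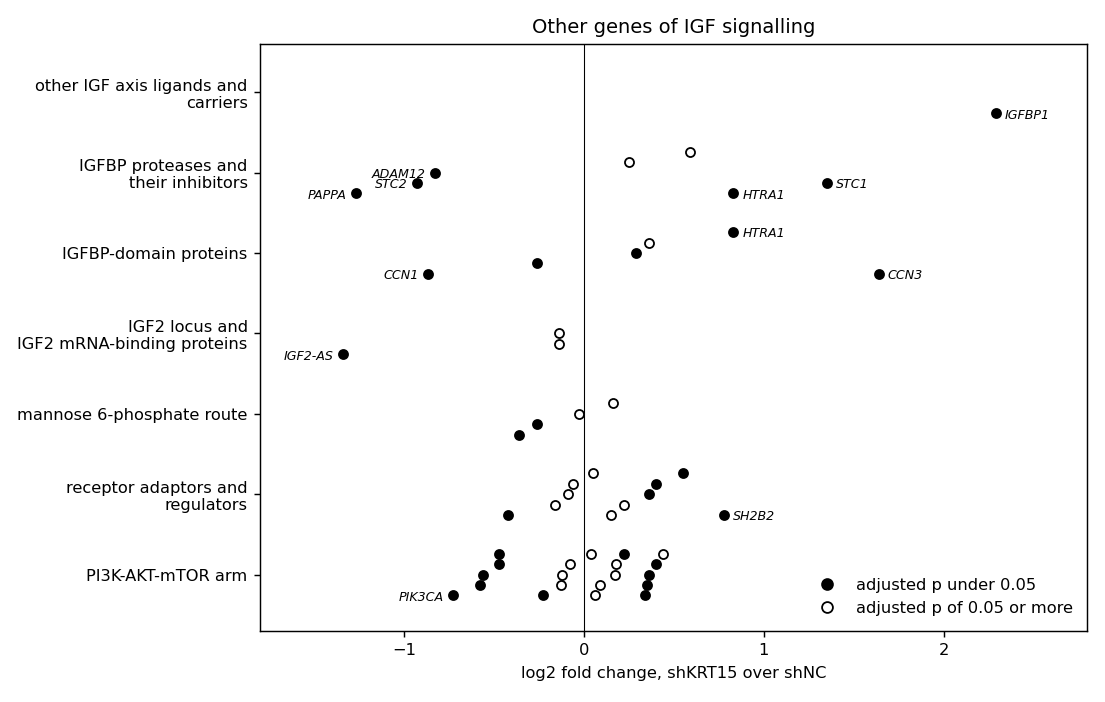
Log2 fold change, shKRT15 over shNC, of the tested genes of each list of other IGF pathway genes; filled points passed the adjusted threshold of 0.05, and genes beyond 0.7 in either direction are named. PAPPA (−1.27) and IGF2-AS (−1.34) lie furthest left, and IGFBP1 (2.29) and CCN3 (1.64) furthest right.

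The genes whose log2 CPM followed IGF2 most closely over the 6 libraries were FYN, a SRC-family kinase gene (Pearson r = 0.999), PPP2R5B, a regulatory subunit gene of protein phosphatase 2A (0.998), and UNC13A, a vesicle-priming gene (0.998). The search covered 9335 genes whose mean reached 10 CPM. All 3 were lower in shKRT15 (log2 fold changes −0.58, −0.69 and −0.68). The points share library, depth and group, and the values are given as a description.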

How the data were processed

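RNA of 6 TPC-1 cultures was sequenced as Illumina mRNA libraries, per the labels' protocols. The authors deposited raw read counts per gene for all libraries in 1 table. The genome build was GRCh38, per the submitters' processing notes; for the aligner, counting tool, annotation and strand use, the entry is: not given in the sources used here. The table held 22681 genes.

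Genes were kept with filterByExpr (minimum count 10, minimum total 15), which left 14356. Counts were scaled with TMM factors. The main test was edgeR's quasi-likelihood one (version 4.0.16, R 4.3.3), over both groups with no covariate, with Benjamini-Hochberg adjustment over all tested genes and a threshold of 0.05. The steps were tested on simulated data. Alternatives used DESeq2 1.42.0, limma 3.58.1 (voom), other scalings and filters, a replicate block, protein-coding genes only, a correction for GC content and length (known for 95.2% of tested genes, from the longest GENCODE transcript), and each library left out. Differences between pairs of libraries of a group exceeded counting noise, with chi-square per degree of freedom from 6.24 to 31.1, so no library was counted as a repeat.

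The 10 genes and the lists were chosen with earlier results of these data known. Named are the 10 genes and KRT15, of each pathway list the 4 called genes with the smallest p and every gene of short lists (5 or fewer tested), and the 3 genes most like IGF2. ADAM12, CRIM1, GRB14, PAPPA2, IRS1, IRS2 and IGFBP7-AS1 fall outside this rule and were chosen after their values were seen. Positions and promoters are from RefSeq, GRCh38.p14. Counting error is small at these depths except for genes with few reads, such as IGFBP2, IGFBP5, IGFBP1, IGF2-AS, IGFBP7-AS1 and SH2B2. One gene of the lists is not reported here and was left out of their counts.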

Additional observations from a re-analysis of the deposited data

How the results depend on the processing

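Over 16 other settings, the log2 fold changes of IGF2 (−1.06 to −0.74), IGFBP3 (1.04 to 1.22), IGFBP4 (0.78 to 0.98), IGFBP5 (2.93 to 3.30), IGFBP6 (0.45 to 0.63) and IGFBP7 (−1.45 to −1.28) kept their direction and their call, and INSR (0.09 to 0.34) was never called. IGF2R was −0.27 with total-count scaling and −0.32 with limma-voom, where it no longer passed the threshold, and ran from −0.45 to −0.19 with each library left out. IGF1R was called lower at −0.38 once the trend on GC content and length was taken out, and ran from −0.39 to −0.06 with each library left out. IGFBP2 ran from 1.00 to 1.58 with each library left out. GNPTAB, at −0.03, turned to 0.03 with total-count scaling and ran from −0.10 to 0.07 with each library left out, and NAGPA turned to −0.02 once the trend was taken out. The cause of these shifts was not tested. With each library left out, 4 to 5 of the 10 genes were called higher and 2 to 4 lower. Calls higher made up 49% of all calls, 58% with total-count scaling and 40% with the trend taken out. Calls of IGFBP2, IGFBP5 and IGFBP1 rest on few reads, and 3 cultures a group limit all single values.

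With the replicate number as a block, IGF2R was at −0.32 with an adjusted p of 0.22 (0.0471 without the block), and 6733 genes were called, against 6464. No other call among the 10 genes changed under the block. Same-numbered libraries correlated at 0.0188, −0.00742 and 0.0462 in their deviations from the group means, so they share only a number.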
